A study of Mus musculus with 9 samples.

Results

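Cxcl12, Cxcr4 and Ackr3 encode a chemokine and its 2 receptors, and were followed as 3 genes chosen by name among the 46078 gene identifiers of the count data. Poly-A RNA was sequenced from EGFP-SSCs, a wild-type mouse line of spermatogonial stem cells (SSCs) that expresses green fluorescent protein, with 3 libraries, labelled as biological replicates, for 0 h, for 24 h and for 48 h. At 0 h the cells came from normal culture on mitotically inactivated mouse embryonic fibroblasts, in medium with 10 ng/ml GDNF, 20 ng/ml epidermal growth factor and 10 ng/ml basic fibroblast growth factor. For 24 h and 48 h, they were mixed 1:1 with testicular somatic cells of busulfan-exposed mice aged 3 to 7 days, a treatment that depletes germ cells. The medium then held BMP-4 and BMP-7 (20 ng/ml each), 1e-06 M retinoic acid, 100 ng/ml activin A, 200 ng/ml follicle-stimulating hormone, testosterone, serum replacement and bovine pituitary extract, and EGFP-positive cells were then sorted. The labels mention no sort for 0 h. The paper states that SSCs of different culture stages were sorted before sequencing, and does not name 0 h there, so whether those cells were sorted is not settled. Medium, growth factors, neighbouring cells and time changed together between 0 h and the later samples, so their effects cannot be told apart, and all samples derive from 1 line.

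CXCL12 is a secreted chemokine that binds heparan sulfate in the matrix and draws cells that carry CXCR4, a receptor coupled to inhibitory G proteins. ACKR3 binds the same ligand, recruits arrestins without classical G protein signalling, and removes the chemokine from the surroundings. In the germline, the pair CXCL12 and CXCR4 is known to guide migrating primordial germ cells, and in the testis the ligand comes from somatic cells while undifferentiated spermatogonia carry CXCR4.

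RNA of the ligand rose and that of its signalling receptor fell. Cxcl12 rose 5.00-fold in 24 h and 13.0-fold in 48 h, Cxcr4 fell 6.53-fold and 8.09-fold, and no change of Ackr3 was detectable. With edgeR's two-sided quasi-likelihood test and Benjamini-Hochberg adjusted p-values of up to 0.05, which also give every adjusted p quoted here, 2 of the 3 genes were called at 24 h against 0 h, beside 25.5% of all genes tested. Likewise 2 of 3 were called at 48 h against 0 h, where the share over all genes was 31.6%. From 24 h to 48 h, 1 of 3 was called, Cxcl12, beside 21.3% of all genes.

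All 3 genes are protein-coding and were placed with GENCODE release M21 on GRCm38, the build that the submitters' processing notes name. Cxcl12 (ENSMUSG00000061353) lies on the plus strand of chromosome 6, from 117168535 to 117181367. Cxcr4 (ENSMUSG00000045382) lies on the minus strand of chromosome 1, from 128588199 to 128592293, and Ackr3 (ENSMUSG00000044337) on the plus strand of the same chromosome, from 90203980 to 90216751. The union of their exons covers 8176, 1808 and 3348 bases. Exons of 0 other annotated genes overlap them, and 0 windows of 50 bases in their transcripts occur in transcripts of other genes, so reads were not shared with a near-identical copy of that kind.

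The promoters are shown because the 3 genes of 1 ligand and receptor axis took 3 different courses. The 250 bases before each RefSeq start (GRCm38.p6) are written 5′ to 3′ on the strand of the gene, with matches of 4 motifs in capitals, searched on both strands: TATAAA (the TATA box), GGGCGG (the GC box), the palindromic site of the factor NRF1, and AGGTCA (the half-site of nuclear receptors, retinoic acid receptors among them). They span chr6:117168285-117168534 for Cxcl12, chr1:128592300-128592549 for Cxcr4 and chr1:90203730-90203979 for Ackr3.
Cxcl12: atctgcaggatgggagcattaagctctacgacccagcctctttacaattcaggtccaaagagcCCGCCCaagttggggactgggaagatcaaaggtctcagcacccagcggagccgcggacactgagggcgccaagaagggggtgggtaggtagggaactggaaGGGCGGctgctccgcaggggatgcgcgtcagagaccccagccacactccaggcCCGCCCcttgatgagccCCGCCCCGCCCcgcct
Cxcr4: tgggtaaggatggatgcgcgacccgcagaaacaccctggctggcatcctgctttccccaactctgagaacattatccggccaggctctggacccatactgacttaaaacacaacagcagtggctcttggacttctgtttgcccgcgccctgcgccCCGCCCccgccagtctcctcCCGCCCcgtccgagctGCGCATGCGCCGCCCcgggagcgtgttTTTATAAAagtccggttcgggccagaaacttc
Ackr3: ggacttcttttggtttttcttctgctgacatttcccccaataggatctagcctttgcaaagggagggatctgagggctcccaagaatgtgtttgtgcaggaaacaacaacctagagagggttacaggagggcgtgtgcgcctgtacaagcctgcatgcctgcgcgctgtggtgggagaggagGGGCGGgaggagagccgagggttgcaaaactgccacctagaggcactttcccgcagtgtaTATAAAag
The Cxcl12 window holds 5 GC boxes, of which the last 2 share a base, and no TATAAA. Cxcr4 has 3 GC boxes, the last of them overlapping the single NRF1 site, which begins 59 bases before the start and whose capitals run on into that GC box, and TATAAA on both strands in 1 overlapping stretch from 32 bases before the start. Ackr3 has 1 GC box and 1 TATAAA beginning 8 bases before the start. No AGGTCA was found in the 3 windows. Among 32851 RefSeq promoter windows of this length, 12.4% hold TATAAA, 32.7% GGGCGG, 0.782% the NRF1 site and 14.0% AGGTCA. The dinucleotide CG occurs 14 times before Cxcl12, 19 times before Cxcr4 and 7 times before Ackr3, against a median of 6 over all windows. These matches describe the letters and show no binding.

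The 9 libraries held 16825251 to 22201892 counts. Levels are given as CPM, the count of a gene relative to the TMM-scaled total of its library. Of all replicate pairs, 0 h replicates 1 and 3 differed most, and in the 0 h libraries the germ cell gene Dazl ranged from 421 to 1350 CPM. The labels call the replicates biological but do not tell separate cultures apart, so p-values measure the spread between these samples.

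Cxcl12 was counted 31, 30 and 45 times in the 3 libraries of 0 h, 146, 219 and 190 times at 24 h, and 482, 511 and 527 times at 48 h. In CPM, these libraries were at 1.93, 1.49 and 2.24, then at 7.17, 11.7 and 9.28, and last at 25.3, 22.2 and 26.7. Each library of 48 h lay above each of 24 h, and each of those above each of 0 h. The lowest count, 30, has an exact Poisson 95% interval of 20.2 to 42.8, which covers counting error only and ends far below the lowest count of 24 h.

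The group means of Cxcl12 were 1.89 ± 0.379, 9.39 ± 2.27 and 24.7 ± 2.29 CPM (SD, n = 3). The log2 fold change against 0 h came to 2.32 (standard error 0.26) after 24 h and to 3.71 (standard error 0.20) after 48 h, and was 1.39 (standard error 0.16) between these times. All 3 changes were called (edgeR, adjusted p = 0.000751, 2.25e-05 and 0.000755). Only 3.48% of the genes tested had a larger absolute log2 fold change at 24 h, 1.62% at 48 h, and 1.50% between 24 h and 48 h. Groups without overlap were common among all genes. Those that were higher in this way made up 21.2%, 22.9% and 18.6% of the genes tested in the 3 comparisons, and 43.4%, 48.3% and 39.6% did not overlap in either direction.

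Cxcr4 went the other way, and most of its fall lay before 24 h. It was counted 655, 777 and 897 times at 0 h, 113, 106 and 156 times at 24 h, and 103, 110 and 102 times at 48 h. In CPM, this came to 40.9, 38.6 and 44.7 before differentiation, 5.55, 5.67 and 7.62 after 24 h, and 5.40, 4.78 and 5.17 at the end. All libraries of 24 h and 48 h lay far below those of 0 h, and those of 48 h lay just below those of 24 h.

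Group means of Cxcr4 were 41.4 ± 3.10, 6.28 ± 1.16 and 5.12 ± 0.311 CPM (SD, n = 3). Against 0 h, its log2 fold change was -2.71 (95% interval -3.08 to -2.33) after 24 h and -3.02 (-3.31 to -2.72) after 48 h, both called (edgeR, adjusted p = 4.71e-05 and 1.14e-05). Of all genes tested, 22.2% and 25.4% lay below 0 h without overlap in these comparisons. Between 24 h and 48 h it was -0.31 (95% interval -0.69 to 0.07) and was not called (edgeR, adjusted p = 0.224). The levels at these times could therefore not be told apart beyond the spread of replicates, although the 3 libraries of 48 h lay below the 3 of 24 h, as did those of 21.0% of all genes.

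Ackr3 was low at each time. The 0 h libraries were at 3.68, 2.98 and 3.49 CPM (59, 60 and 70 counts), the 24 h libraries at 2.80, 2.73 and 3.81 CPM (57, 51 and 78 counts), and the 48 h libraries at 3.41, 2.30 and 3.75 CPM (65, 53 and 74 counts). The 3 groups overlapped. Their means were 3.38 ± 0.363, 3.11 ± 0.605 and 3.15 ± 0.755 CPM (SD, n = 3).

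No change of Ackr3 was called. The log2 fold change was -0.11 in both comparisons with 0 h and 0.00 between the later times (edgeR, adjusted p = 0.792, 0.789 and 1). The 95% intervals ran from -0.65 to 0.44, from -0.69 to 0.48 and from -0.55 to 0.55. At this depth, a change of Ackr3 within these bounds was not detectable, whereas the intervals leave out changes as large as those of Cxcl12 or Cxcr4 relative to 0 h. A larger absolute change was measured for 82.5%, 85.5% and 99.9% of the genes tested in the 3 comparisons.

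**Figure D1:**
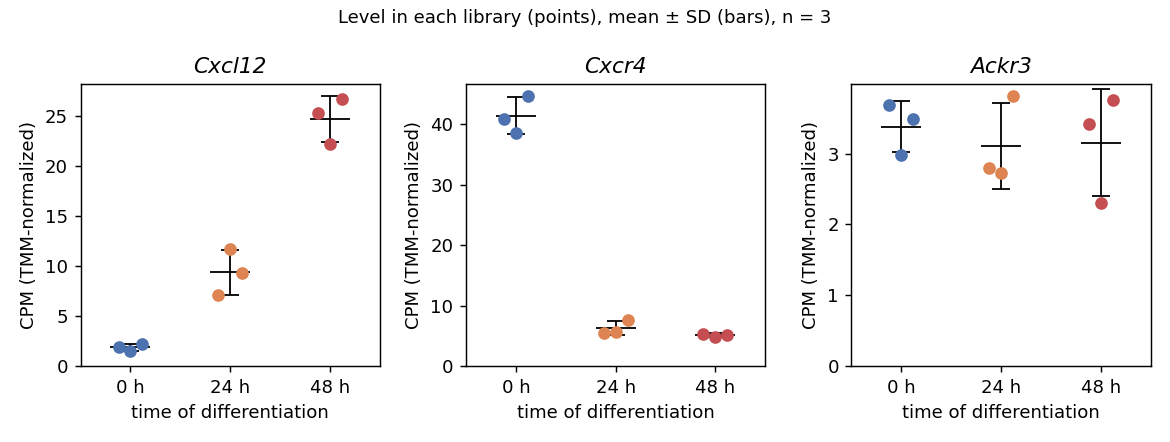
CPM of Cxcl12, Cxcr4 and Ackr3 (vertical axes, starting at 0, with a scale of their own for each gene) in each library at 0 h, 24 h and 48 h. Points are libraries, horizontal bars the means and error bars the SD of 3 libraries. Cxcl12 climbs from 1.89 to 24.7 CPM, Cxcr4 drops from 41.4 to 6.28 CPM by 24 h, and the groups of Ackr3 overlap, with means of 3.11 to 3.38 CPM.

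**Figure D2:**
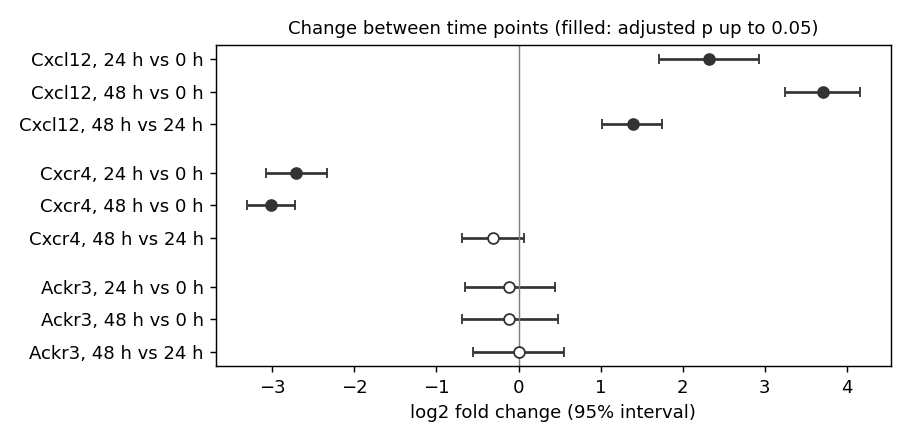
Log2 fold changes (horizontal axis) of the 3 genes in the 3 comparisons, with 95% intervals from the edgeR fits, filled where the adjusted p was up to 0.05. The intervals of Cxcl12 lie to the right of 0 in each comparison, those of Cxcr4 to the left relative to 0 h, and all 3 of Ackr3 span 0.

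To compare the genes with each other, counts were divided by the exon length, as FPKM. At 0 h, Cxcr4 was at 22.9 ± 1.71 FPKM, Ackr3 at 1.01 ± 0.108 and Cxcl12 at 0.231 ± 0.0463 (SD, n = 3). At 24 h, Cxcr4 was still first with 3.47 ± 0.643 FPKM, and Cxcl12 (1.15 ± 0.278) and Ackr3 (0.930 ± 0.181) lay within their spread of each other. At 48 h, Cxcl12 (3.02 ± 0.280 FPKM) and Cxcr4 (2.83 ± 0.172 FPKM) lay within their spread of each other and above Ackr3 (0.942 ± 0.226 FPKM). Among genes expressed over the 9 libraries, Cxcr4 had a higher FPKM than 83.7% of genes at 0 h and than 42.1% at 48 h, while Cxcl12 moved from above 8.05% to above 43.5%, and Ackr3 from above 25.5% to above 24.6%. With the longest transcript as the length, Cxcl12 was at 0.336, 1.67 and 4.39 FPKM, since its longest transcript spans only 5627 of the 8176 exonic bases, and at 48 h its mean then lay above that of Cxcr4.

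The balance between the genes within a library needs no scaling between libraries. Per length, the log2 ratio of Cxcr4 to Ackr3 was 4.36, 4.58 and 4.57 in the libraries of 0 h, 1.88, 1.94 and 1.89 at 24 h, and 1.55, 1.94 and 1.35 at 48 h. RNA of the signalling receptor thus exceeded that of the scavenging receptor 22.7-fold at 0 h, 3.74-fold at 24 h and 3.06-fold at 48 h. These ratios do not give the levels of receptor protein. The log2 ratio was lower by 2.60 at 24 h and by 2.89 at 48 h than at 0 h, without overlap, at an exact two-sided permutation p of 0.1, the smallest that 3 against 3 libraries allow. From 24 h to 48 h the groups overlapped, with a difference of -0.29 (exact permutation p = 0.3).

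The ratios of the ligand to each receptor were added after the levels had been seen. The log2 ratio of Cxcl12 to Cxcr4 went from -6.65 ± 0.20 (SD, n = 3) before differentiation to -1.61 ± 0.42 and then 0.09 ± 0.09. With the longest transcript as the length, it was -6.11, -1.07 and 0.63, so how near to parity the genes came at 48 h depends on the length used. That of Cxcl12 to Ackr3 went from -2.14 ± 0.19 to 0.29 ± 0.45 and 1.71 ± 0.24. For both ratios, no library of a time overlapped those of another time, each at the smallest exact permutation p of 0.1.

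**Figure D3:**
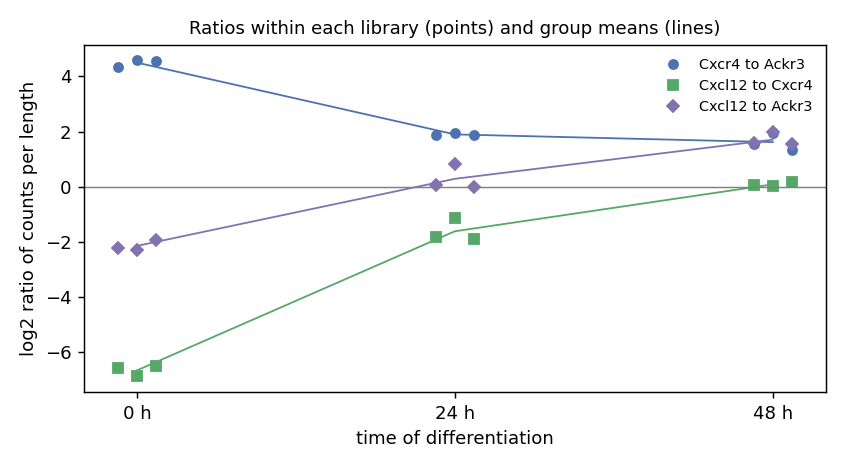
Log2 ratios of counts per length (vertical axis) within each library at 0 h, 24 h and 48 h for Cxcr4 to Ackr3, Cxcl12 to Cxcr4 and Cxcl12 to Ackr3. Points are libraries and lines join group means. Cxcr4 to Ackr3 falls from 4.50 to 1.90 by 24 h, and both ratios of the ligand rise at each step.

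Markers of somatic cells moved with Cxcl12, although the 24 h and 48 h cells were sorted for EGFP, a gate that would remove the co-cultured somatic cells. Beside the counts of markers called in the comparisons with 0 h, 11.4% (24 h) and 13.0% (48 h) of all genes were called higher, and 14.2% and 18.5% lower. Markers low at 0 h, such as Cst12, Amh, Dhh, Actg2 and Csf1r, passed the expression filter through the later libraries. A gene that passes in this way has to differ, so calls of such markers describe the list only. In bulk RNA, fewer cells of a type and less RNA per cell cannot be told apart. The summed level of 10 genes of stromal cells and fibroblasts, the feeder cells included, was 363 to 456 CPM at 0 h, 2260 to 2630 at 24 h and 3090 to 3430 at 48 h, and all 10 had over 3 counts in each library. Of these, 7 were called higher and 1, Thy1, lower in both comparisons with 0 h, and Col1a1, the main chain of type I collagen, was at 157, 1110 and 1400 CPM. The 7 genes of peritubular myoid cells summed to 17.1 to 20.5, 161 to 230 and 284 to 350 CPM, with 6 called higher at both times, and Acta2, smooth muscle actin, was at 1.98, 98.0 and 168 CPM.

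The 12 genes of Sertoli cells, the nurse cells of the tubule, summed to 24.5 to 28.6, 80.4 to 137 and 124 to 135 CPM. Of these, 10 were tested and 8 were called higher at both times, Cst12, Amh and Dhh among them. Sox9 and Amhr2 were called lower at 24 h, and Cst12, Fshr and Rhox8 had 0 counts at 0 h. The 6 genes of Leydig cells, which make testosterone, summed to 4.49 to 6.80, 24.6 to 38.6 and 25.3 to 32.6 CPM, with Hsd3b1 and Insl3 at 0 counts at 0 h. By contrast, 8 genes of germ cells, among them Ddx4 and Dazl, summed to 2050 to 3070, 2410 to 2640 and 2450 to 2700 CPM, with overlapping groups, so the markers of the labelled cell type were present at each time. Relative to 0 h, Sall4 was called higher at 24 h (log2 fold change 0.59) and Dnd1 lower at 48 h (-0.61).

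Cxcl12 amounted to 0.411% to 0.503% of the stromal sum in the libraries of 0 h, 0.317% to 0.446% at 24 h and 0.720% to 0.853% at 48 h. The shares of 0 h and 24 h overlapped, and those of 48 h lay above both. The part of somatic RNA in the rise of Cxcl12 was not tested.

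Markers of other cells that can carry CXCR4 moved as well. The 7 genes of endothelial cells summed to 98.9 to 121 CPM at 0 h, 57.6 to 64.6 at 24 h and 38.9 to 43.6 at 48 h. Of these, 6 were tested, with 3 called lower and 1 higher at 24 h, and 4 lower and 1 higher at 48 h. Over all genes, 14.2% and 18.5% were called lower and 11.4% and 13.0% higher. Pecam1 (15.8, 2.66 and 3.01 CPM), Kdr (24.6, 4.74 and 2.41 CPM) and Vwf (28.7, 16.9 and 9.73 CPM) were called lower at both times, and Egfl7 (34.2, 28.7 and 18.9 CPM) at 48 h. Tek was called higher at both times. Cdh5, the endothelial cadherin, was at 4.10, 5.10 and 2.99 CPM and was not called relative to 0 h. The 8 genes of macrophages summed to 16.2 to 19.0, 7.49 to 12.7 and 8.59 to 10.1 CPM, with 1 gene called lower and 2 higher at 24 h and 1 each way at 48 h. Cd68, which held most of the sum, was called lower at both times (15.7, 5.79 and 5.46 CPM), Cd14 was called higher at both (0.610, 1.63 and 1.69 CPM) and Csf1r at 24 h (0.295 and 1.08 CPM), while Ptprc, Adgre1, C1qa and C1qb were each below 1 CPM in their group means. The part of such cells in the level of Cxcr4 was not tested.

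**Figure D4:**
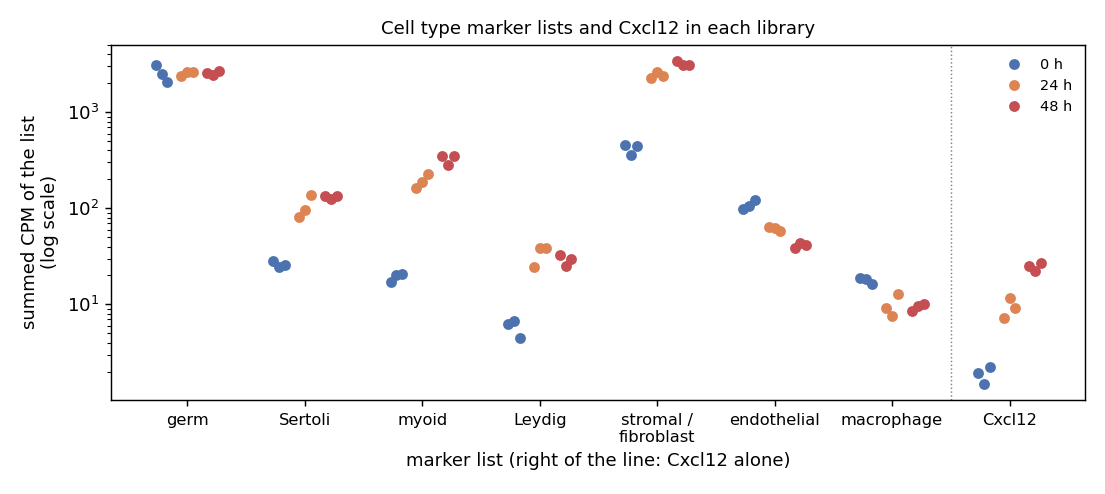
Summed CPM (vertical axis, log scale) of 7 lists of cell type markers in each library at 0 h, 24 h and 48 h, with Cxcl12 alone to the right of the dotted line. Points are libraries. The stromal, myoid, Sertoli and Leydig sums are higher at 24 h and 48 h than at 0 h, as is Cxcl12, the endothelial sum is lower, and the germ cell sums overlap.

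The other chemokine ligands were read beside Cxcl12. Of 41 other ligand genes, 12 passed the expression filter at 24 h against 0 h, of which 6 were called higher and 0 lower, and 13 passed at 48 h, with 7 higher and 1 lower. From 24 h to 48 h, 5 of 13 were called higher and 1 lower. The median log2 fold change of those that passed was 1.03, 1.28 and 0.29, beside medians over all genes of 0.01, 0.02 and 0.00. Calls of higher genes made up 11.4%, 13.0% and 8.61% of all genes tested in these comparisons. Ligands expressed in only 1 group passed the filter through that group, so these counts describe the list and single out nothing.

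The ligand with the most similar course was Cxcl5, a chemokine that attracts neutrophils, at 1.84 ± 0.307, 8.94 ± 0.636 and 17.0 ± 2.95 CPM (SD, n = 3). Ccl2 and Ccl7, which attract monocytes, rose from 7.80 to 16.7 and 29.2 CPM and from 4.10 to 10.9 and 23.6 CPM. Their log2 fold changes at 48 h were 3.21 for Cxcl5, 1.90 for Ccl2 and 2.53 for Ccl7 (edgeR, adjusted p = 6.3e-05, 0.000193 and 3.34e-05), and all 3 were called in the other comparisons as well. Cxcl1 (1.52) and Ccl8 (2.11) were called at 48 h and not at 24 h (0.36 and 0.95). Cxcl14 (1.46 and 1.28) and Ccl11 (1.30 and 1.09) were called at both times, and Cx3cl1, a chemokine that can stay tethered to the membrane, at 24 h alone (1.16, and 0.71 at 48 h). Ccl25, chosen after its values were seen, was the 1 ligand called lower at 48 h (-0.51).

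Within the summed CPM of all ligand genes, Cxcl12 took 2.41% to 3.98% in the libraries of 0 h, 7.35% to 10.3% at 24 h and 15.4% to 16.2% at 48 h. CPM are not divided by gene length, and the exons of Cxcl12 cover 8176 bases, so these shares are not shares of transcripts.

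Of 21 other chemokine receptor genes, 4 passed the filter at 24 h and at 48 h against 0 h, of which 1 was called lower and 0 higher each time. That receptor was Ccr7, which guides lymphocytes to lymph nodes, at 3.99, 3.92 and 5.48 CPM in the libraries of 0 h and between 0.105 and 0.491 CPM in those of 24 h and 48 h. Ccr7 changed by -3.22 (standard error 0.28) and -3.78 (standard error 0.44) on the log2 scale (edgeR, adjusted p = 0.000244 and 0.000753). Ccr7 passed the filter through the 0 h libraries, where it is high, and was under it for 48 h against 24 h, and a gene that passes in this way has to differ. From 24 h to 48 h, 2 receptors passed and 0 were called by edgeR (0 also at an unadjusted p of up to 0.05). Lower calls made up 14.2% and 18.5% of all genes in the comparisons with 0 h.

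Together with Cxcr4 and Ackr3, the receptor genes summed to 51.5 to 58.2 CPM at 0 h, 12.9 to 15.7 at 24 h and 12.3 to 13.6 at 48 h. In CPM, which are not divided by gene length, Cxcr4 alone made up 74.9% to 76.9% of the sum at 0 h, 39.8% to 48.6% at 24 h and 37.9% to 43.8% at 48 h.

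**Figure D5:**
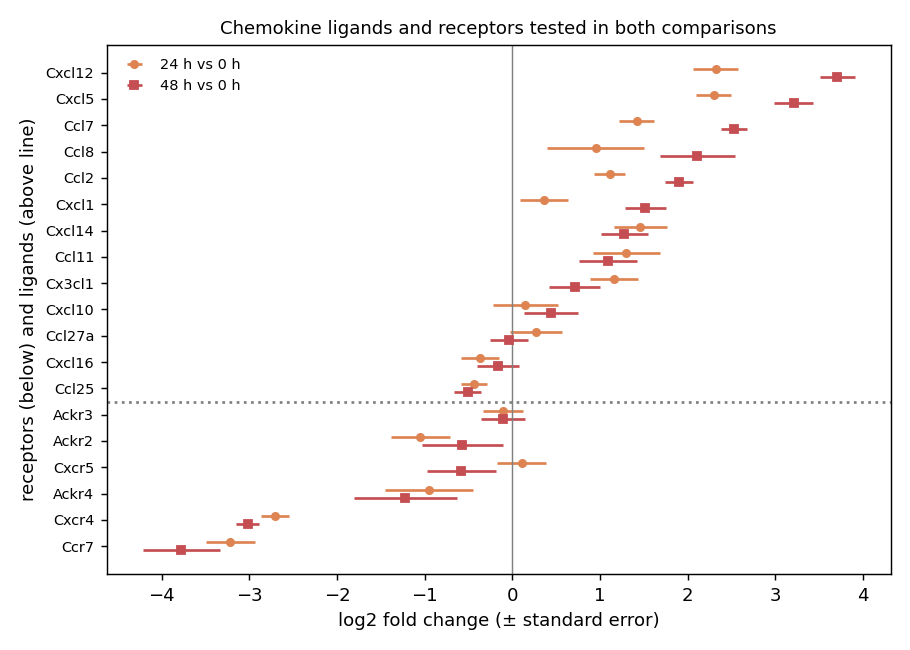
Log2 fold changes with standard errors (horizontal axis) at 24 h and 48 h relative to 0 h for the 13 ligands and 6 receptors, Cxcl12, Cxcr4 and Ackr3 among them, that passed the filter in both comparisons. Ligands stand above the dotted line and receptors below it. Cxcl12 has the highest value among these ligands at 48 h (3.71), and Ccr7 and Cxcr4 have the lowest among the receptors (-3.78 and -3.02).

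Other ligands and partners of the receptors did not share a direction. Of 10 such genes, 8 were tested at 24 h, 3 higher and 2 lower, with a median of 0.00, and 7 at 48 h, 3 higher and 3 lower, with a median of 0.31. Over all genes, 25.5% and 31.6% were called in either direction. Adm encodes adrenomedullin, a peptide that ACKR3 also binds, and fell from 43.8 ± 4.36 CPM to 5.12 ± 1.38 and then 2.08 ± 0.122 CPM (SD, n = 3). The log2 fold change of Adm was -3.08 and -4.40 (edgeR, adjusted p = 6.71e-05 and 5.7e-06). Penk, the precursor of enkephalins, which ACKR3 binds as well, rose by 1.40 and by 0.83. Mif, a cytokine that signals through CXCR4, fell by 1.15 at 48 h (433 to 195 CPM), and Cd164, a sialomucin that associates with CXCR4, fell by 0.90 and by 1.02. Cd44, a receptor for hyaluronan, rose by 0.90 and by 1.19.

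Among 17 genes that cut the ligand or hold it in the matrix, 14 were tested in both comparisons with 0 h, 5 higher and 3 lower each time, with medians of 0.21 and 0.40, beside 11.4% higher and 14.2% lower of all genes at 24 h and 13.0% and 18.5% at 48 h. The gelatinases Mmp2 and Mmp9, which can cleave CXCL12, moved apart: Mmp2 rose from 21.5 to 77.2 and 112 CPM (log2 fold change 1.85 and 2.38), and Mmp9 fell from 53.9 to 15.9 and 11.0 CPM (-1.75 and -2.29). So did the syndecans, cell-surface carriers of heparan sulfate, with Sdc3 at 1.72 and 1.36, Sdc2 at 0.62 (24 h, called) and 0.54 (48 h, not called) and Sdc4 (598, 271 and 208 CPM) at -1.13 and -1.52. Ndst1 (0.57 and 0.60) and Hs6st1 (-0.72 and -0.75), enzymes that add sulfate to heparan chains, were called in opposite directions. Mmp14 was called at 48 h (0.80) and not at 24 h (0.20).

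Of 45 transducers of chemokine signals, 42 were tested. At 24 h, 7 were called higher and 10 lower, with a median of -0.16, at 48 h 5 higher and 11 lower, with a median of -0.25, and from 24 h to 48 h 2 higher and 9 lower, with a median of -0.13. Over all genes tested, 11.4%, 13.0% and 8.61% were called higher and 14.2%, 18.5% and 12.7% lower. The largest changes among those at or above 1 CPM were those of Plcb2, a phospholipase activated by G protein βγ subunits (18.4, 5.54 and 4.00 CPM, log2 fold change -1.72 and -2.21), and of the kinase Jak3 (1.56, 5.89 and 3.38 CPM, 1.92 and 1.11). Pik3cd, a catalytic subunit of phosphoinositide 3-kinase, fell by 0.99 and by 1.36, and Pik3ca fell by 0.99 at 24 h and was at -0.62 at 48 h, not called. Prex1, an exchange factor for Rac, fell by 0.51 and by 1.11, and Dock1, another one, fell by 1.04 at 48 h and was at -0.43 at 24 h, not called. Gnai1, an inhibitory G protein subunit, rose by 1.27 and by 1.46. Gnai2, a related subunit, was chosen after its values were seen and fell by 0.71 and by 0.79 (355 to 215 and 205 CPM). Lyn, a kinase near 1 CPM, rose by 1.38 at 24 h and was at 1.21 at 48 h, not called.

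Of 31 genes that switch the receptors off or carry them through the cell, 28 were tested at each time against 0 h, 4 higher and 7 lower at 24 h with a median of 0.00, and 6 higher and 6 lower at 48 h with a median of 0.24. The shares over all genes were 11.4% higher and 14.2% lower at 24 h, and 13.0% and 18.5% at 48 h. Arrb1, an arrestin that binds phosphorylated receptors, fell from 21.6 ± 2.75 CPM to 6.79 ± 1.19 and then 5.60 ± 1.08 CPM (SD, n = 3, log2 fold change -1.66 and -1.95, edgeR, adjusted p = 0.000724 and 0.000292). The other arrestin Arrb2 was at 144, 133 and 124 CPM and was not called, and Grk2, a kinase that phosphorylates CXCR4, fell by 0.64 and by 0.81 (both chosen after their values were seen). RGS proteins speed the shut-off of G proteins. Of these, Rgs4 rose by 2.26 and by 3.12 (1.72 to 8.14 and 14.9 CPM), Rgs10 by 1.20 and by 0.78, and Rgs2 by 0.84 and by 0.76, while Rgs14 fell by 2.47 and by 2.94 (1.15, 0.199 and 0.144 CPM, past the filter through the 0 h libraries alone), Rgs3 by 0.63 and by 1.04, and Rgs17 by 1.30 at 24 h. Rab11a, which recycles receptors to the surface, fell by 0.87 and by 0.82.

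Genes were named from these lists for a large change and a call in at least 1 comparison, or after their values were seen. The numbers of calls among them therefore follow largely from that choice, and serve only as the base for counting which calls held. Among the 41 genes named in this way, 35 were called at 24 h against 0 h. Of those calls, 22 held under each alternative that tested the gene and without each library. Calls of Ccl11, Cd164, Cd44, Cx3cl1, Grk2, Lyn, Ndst1, Pik3ca, Prex1, Rgs17, Rgs2, Rgs3 and Sdc2 were lost in at least 1 of them. At 48 h, 30 of 35 calls held, with those of Ccl11, Jak3, Penk, Rgs10 and Rgs2 lost at least once. The fit with at least 10 counts in each library left out Ccr7, Rgs14, Ccl8 and Lyn in both comparisons with 0 h, and Ccl8 from 24 h to 48 h. Against 0 h, the calls of Ccr7 and Rgs14 at both times and of Ccl8 at 48 h are counted as held over the 13 alternatives that tested them. From 24 h to 48 h, 11 of 22 calls held, and those of Ccl8, Cx3cl1, Mif, Mmp9, Penk, Pik3ca, Pik3cd, Rgs10, Rgs3, Sdc3 and Sdc4 were lost at least once.

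The genes whose course over the 9 libraries was most like that of each of the 3 were found by the root mean square difference of log2 CPM, centred on each gene's mean, with 18160 genes compared. For Cxcl12, they were Col8a1, a short-chain collagen (0.297), Gm6665 (0.304), Cxcl5 (0.333), Clu, the secreted chaperone clusterin, which is abundant in Sertoli cells (0.341), and Slc24a3 (0.361), beside a median of 1.53 over all genes. In order of time, Col8a1 was at 1.27, 6.87 and 16.1 CPM and Clu at 6.11, 33.3 and 56.3 CPM.

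For Cxcr4, the nearest genes were Lmx1a, a homeobox factor (0.166), Pygl, the glycogen phosphorylase of liver (0.173), Nrros (0.178), Slc38a1, a glutamine transporter (0.184), and Slc2a3, the glucose transporter GLUT3 (0.185), with a median of 1.41 over all genes. Pygl was at 192, 25.3 and 19.0 CPM and Slc2a3 at 492, 65.1 and 65.9 CPM. For Ackr3, they were Tuba1a (0.110), mt-Co2 (0.120), Gm28661 (0.121), mt-Co1 (0.126) and Pon3 (0.145), with a median of 0.428. No change of Ackr3 between times was called, so these genes match a nearly flat profile. Its differences between libraries include counting error, at 51 to 78 counts a library. Gm28661 and mt-Co2 had nearly equal levels at each time (4620 and 4610 CPM at 0 h), so reads may have been counted on either.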

How the data were processed

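Counts of reads per gene were deposited for 9 libraries of EGFP-SSCs, 3 at 0 h and 3 at each of 24 h and 48 h of co-culture, the latter from sorted cells, and the authors applied no normalization to them. The submitters' processing notes name fastp, HISAT2, featureCounts and the build GRCm38, with versions not given in the sources used here. GENCODE release M21 gave symbols, positions and lengths for 45229 of 46078 identifiers, and the other 849 took at most 0.121% of the counts of a library. Totals of 16825251 to 22201892 counts set the precision.

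Each comparison was fitted on its own 6 libraries in edgeR 4.0.16 (R 4.3.3), with filterByExpr as the filter, TMM scaling and a two-sided quasi-likelihood test. The Benjamini-Hochberg procedure adjusted p-values over the genes that passed, and calls required up to 0.05. The study used DESeq2, which is an alternative here. 95% intervals follow from the same fits. CPM were scaled over the 9 libraries, FPKM used the union of exons, and likeness used log2(CPM + 0.1). Ratios were compared with exact permutation tests. Plots were made in matplotlib 3.10.9 (Python 3.11.15).

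The members, the gene lists and the rules were chosen with earlier results of these data known. Of each list, up to 8 genes were named, those with the largest change among genes whose mean reached 1 CPM in a group and a call in at least 1 comparison, and for each of the 3 genes the 5 most alike. Replicate pairs differed beyond sampling noise (chi-square over its degrees of freedom of 7.13 to 81.4). The alternatives were DESeq2 1.42.0, edgeR scaled by DESeq2 size factors or by library size only, no filter, at least 10 counts in each library, a joint fit of the 9 libraries, a block for the replicate number, offsets for GC content and length (splines with 5 and 4 degrees of freedom), and leaving out each library. The procedure was tested on simulated data for 24 h against 0 h, 48 h against 0 h and 48 h against 24 h. There edgeR called 42.4%, 20.5% and 61.5% of genes given a log2 fold change of 1. Of those given a log2 fold change of 2, it called 85%, 84.3% and 97%, with 6, 3 and 10 false calls. The simulations held few changed genes, 83 to 91 with a log2 fold change of 1 and 101 to 108 with 2. In the data, 4494, 5602 and 3732 genes were called. With fewer changed genes, the Benjamini-Hochberg cut-off is stricter, so these shares do not measure how many changes the real tests found. A gene that was not called can still have changed. No protein sequences were used here.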

Additional observations from a re-analysis of the deposited data

How the results depend on the processing

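For Cxcl12 and Cxcr4, each of the 3 comparisons kept its direction and its call, or its lack of one, under all 14 alternatives. Over these, the log2 fold change of Cxcl12 lay between 2.14 and 2.50 after 24 h, between 3.55 and 3.88 after 48 h, and between 1.22 and 1.57 from 24 h to 48 h, and that of Cxcr4 between -2.86 and -2.59, between -3.07 and -2.91, and between -0.39 and -0.13. Ackr3 was called under no alternative (adjusted p = 0.559 to 0.995 over the edgeR and DESeq2 fits), and its sign, near 0, was not fixed. For 24 h against 0 h it was 0.01 with library size alone. For 48 h against 0 h it was 0.00 with library size alone, 0.01 with GC and length offsets and -0.24 to 0.07 without 1 library. From 24 h to 48 h it was -0.01 with library size alone, 0.00 without the filter or with the replicate block, and -0.15 to 0.19 without 1 library. The ratio of Cxcr4 to Ackr3 kept its direction, at -2.67 to -2.56, -3.05 to -2.76 and -0.45 to -0.16 without 1 library.

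Over all genes, 4494 calls for 24 h against 0 h became 2607 to 6023 without 1 library, with 2931 without 0 h replicate 2 and 2610, 2607 and 2806 without 24 h replicates 1, 2 and 3. The 5602 calls for 48 h against 0 h became 3471 to 7116, with 3471 and 3624 without 48 h replicates 1 and 3. The 3732 calls for 48 h against 24 h became 1857 to 4356, with 2044 without 24 h replicate 1 and 1857 and 2255 without 48 h replicates 1 and 3, and 1043 in the joint fit of the 9 libraries. Library size alone put the median of all genes at 0.12 and 0.13 in the comparisons with 0 h, and moved the higher genes from 44.5% to 57.1% and from 41.2% to 52.8% of the calls. The replicate block gave 3007, 4013 and 2497 calls. Deviations of same-numbered libraries from their group means correlated at -0.28 to 0.195, and not every library correlated best with its own number, so the numbers were not taken to pair the samples. With the block, Cxcl12 was 2.31, 3.72 and 1.40 and Cxcr4 was -2.72, -3.01 and -0.30, with no call changed.

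For the 41 named list genes, 1529 of 1685 values kept direction and side of the threshold, 115 lost a call, 21 gained one and 20 turned sign, of which 0 were called (edgeR or DESeq2, lowest adjusted p = 0.101). With library size alone, Arrb2 was 0.01 for 24 h against 0 h. With GC and length offsets, Arrb2 was 0.04 for 48 h against 0 h, and from 24 h to 48 h Arrb2 was 0.07, Cxcl14 0.00, Rab11a -0.14, Hs6st1 0.20, Gnai2 0.14 and Grk2 0.04. With at least 10 counts in each library, Hs6st1 was 0.00. Without 1 library, Arrb2 was -0.26 to 0.09 for 24 h against 0 h, and from 24 h to 48 h Ccl11 was -0.35 to 0.07, Cxcl14 -0.35 to 0.06, Hs6st1 -0.10 to 0.05, Lyn -0.31 to 0.06, Rgs2 -0.13 to 0.02, Ndst1 -0.03 to 0.11 and Sdc2 -0.19 to 0.01. The cause was not tested. Low counts limit Ackr3, at 51 to 78 counts a library, and Cxcl12 at 0 h, at 30 to 45.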

Other observations

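Several chemokine genes lay under the expression filter and were not tested, and the following were chosen after their values were seen. Ccl20, a ligand of the receptor CCR6, had 0 counts in each library of 0 h, which allows up to 3 counts a library, reached at most 0.428 CPM at 24 h, and was at 0.734, 0.348 and 0.709 CPM in those of 48 h. Ccl1 was at 0.686, 0.496 and 0.299 CPM at 0 h, at 0.0491 CPM in 1 library of 24 h and at 0 in the others of 24 h and 48 h. Ccr10, a receptor for CCL27 and CCL28, was at 0.312, 0.496 and 0.847 CPM at 0 h and reached at most 0.374 CPM later. The receptors Ccr2 and Ccr8 had 0 counts in all 9 libraries, and Dpp4, the peptidase that inactivates CXCL12, had means of 0.245, 0.572 and 0.506 CPM and was not tested against 0 h.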
